A study of Mus musculus with 18 samples.

Results

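Nontumour liver of mice given the carcinogen diethylnitrosamine (DEN) was compared between RNA-seq libraries labelled liver-specific Ftcd knockout (LKO) and libraries labelled wild type (WT). The comparison used 9 of the 18 libraries of the series, 3 labelled LKO and 6 labelled WT. Its members are the 12461 genes with at least 1 TPM (transcripts per 1000000 transcripts) in at least 3 of these 9 libraries, out of 27741 genes above 0 in any of them and 58126 genes in the table. They were measured as log2(TPM + 1), a scale that understates the change of genes at low levels. Of the 12461 genes, 34 passed the filter through the LKO libraries alone and 542 through the WT libraries alone, and such genes had to differ between the groups.

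Both groups were C57BL/6 mice that received 20 mg/kg DEN into the peritoneum on postnatal day 14 and were kept on regular chow. Liver was taken 12 months after the injection, and both groups used here are tissue labelled nontumorous. The series calls the WT mice littermates of the knockouts. The promoter or Cre line behind the liver-specific deletion is not given in the sources used here, and neither is the sex of the mice. No label says that the libraries of a group came from separate animals, so p-values measure no more than how these samples vary, and part of that may be technical. Sequencing depth is unknown because TPM keeps no read counts. Untreated liver (3 LKO and 3 WT libraries, age 12 months) and LKO tumour (3 libraries) entered the same fit to share 1 estimate of the spread.

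Ftcd encodes formimidoyltransferase cyclodeaminase, the liver enzyme that takes the formimino group left by histidine breakdown and passes it to tetrahydrofolate. DEN is turned into a DNA-alkylating agent by cytochrome P450 enzymes of hepatocytes, Cyp2e1 among them, and a dose to young mice gives liver tumours many months later. Mouse liver is also a sex-dimorphic organ, because growth hormone is secreted in sharp pulses in males and more evenly in females and STAT5 reads that pattern. PPARa, a nuclear receptor that binds fatty acids, controls fatty acid oxidation in peroxisomes and mitochondria.

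Ftcd itself (ENSMUSG00000001155, mm10 chromosome 10, 76575648 to 76590338, plus strand) had 0.34, 1.01 and 0.85 TPM in LKO 1, 2 and 3. It had 2.36 TPM in WT 1 and 2.5 TPM in WT 2, against 61.66 to 106.1 TPM in WT 3 to WT 6. All LKO libraries lay below all WT libraries, but WT 1 and WT 2 lay close to the LKO level and so go against their label. The difference was -4.0 on log2(TPM + 1) (exact permutation test, 2-sided, p = 0.0238, 84 splits), and Ftcd did not pass in limma across all genes (adjusted p = 0.248). Xist, the RNA of the inactive X, and the Y-linked genes showed that LKO 1 and all 6 WT libraries were XX while LKO 2 and LKO 3 were XY. Mitochondrially encoded transcripts took 36.88%, 19.19% and 17.85% of all TPM in LKO 1 to 3. They took 38.82% in WT 1 and 4.39% to 9.82% in WT 2 to WT 6. LKO 1 and WT 1 were thus both XX, both low in Ftcd and both rich in mitochondrial transcripts. The defining transcripts of hepatocytes were abundant in every library, with albumin (Alb) between 9963 and 59439 TPM.

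**Figure D1:**
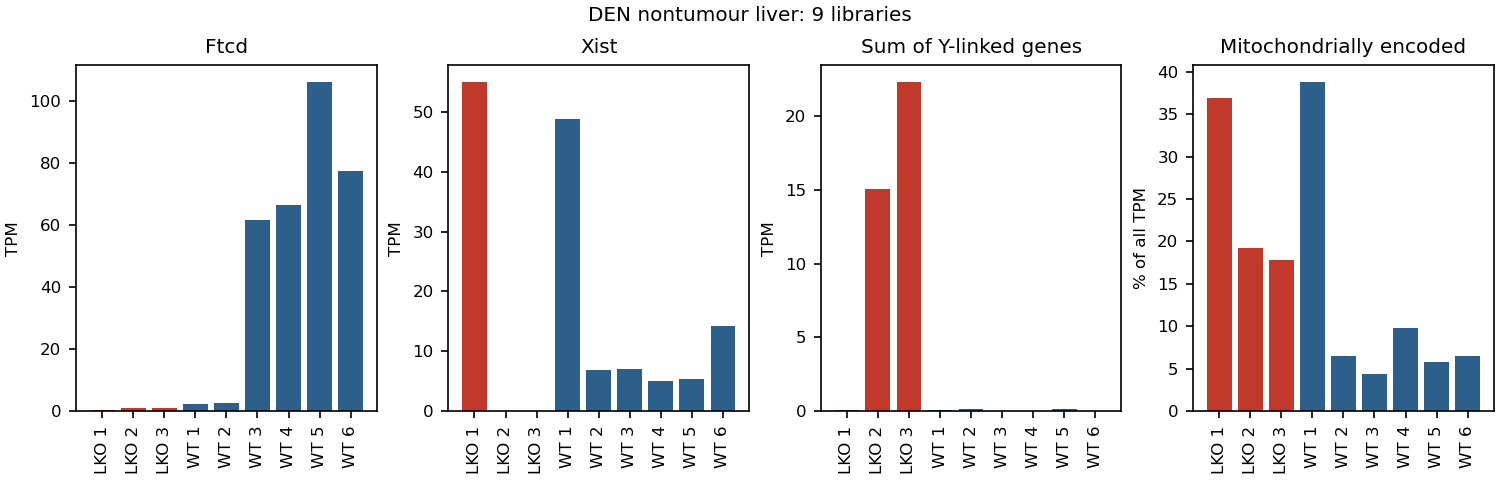
Ftcd, Xist and the summed Y-linked genes in TPM, and the share of all TPM from mitochondrially encoded genes in percent, for the 3 libraries labelled LKO (red) and the 6 labelled WT (blue). WT 1 and WT 2 have 2.36 and 2.5 TPM of Ftcd, and WT 1 shares with LKO 1 a mitochondrial share above 36%.

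Few genes passed over the whole table. In limma, 8 of 12461 genes (0.0642%) had an adjusted p under 0.05, 4 of them lower in LKO (0.0321%) and 4 higher (0.0321%). The lower genes were A1bg, Sult2a1, Sult2a2 and Sult2a5, and the higher ones were Grm8, the processed pseudogene Gm3788 and a pair of assembled loci without a gene name. At an unadjusted p under 0.05, 895 genes (7.18%) were lower and 804 (6.45%) higher. The LKO and WT libraries did not overlap for 229 lower genes (1.84%) and 280 higher genes (2.25%). These counts include genes that passed the filter through 1 label alone, among them Grm8 and both assembled loci, which are 3 of the 4 higher calls. Over all genes, 8031 of 12461 had a negative difference, so counts of negative differences in a list are read beside that share. The median difference over all genes was -0.24, and it was 0.02 after median-ratio scaling, so small shifts of a list are read beside this one. That scaling called 3 lower and 8 higher genes.

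The count rose when WT 1 and WT 2, the WT libraries with low Ftcd, were left out together. Without WT 1 and WT 2, 1466 genes (11.8%) passed, 1006 lower (8.07%) and 460 higher (3.69%), and the 8 genes named above were among them. In that setting the mitochondrial share was 17.85% to 36.88% in LKO and 4.39% to 9.82% in the remaining WT libraries, with no overlap. With the same libraries left out and the mitochondrial share as a covariate, 1 gene passed. With a term for XX or XY in its place 5426 passed, 4665 lower and 761 higher. The median over all genes was then -0.95, beside -0.49 without the term, so that count goes with a shift of all genes. Only the LKO nontumour and LKO tumour groups hold both XX and XY libraries and set that term. Leaving out WT 1 alone gave 376 genes, and leaving out WT 2 alone gave 14. Both were low in Ftcd, but the mitochondrial share was 38.82% in WT 1 and 6.47% in WT 2. The part of either in the count was not tested. Since the remaining WT libraries were all XX and all low in mitochondrial transcripts, genotype, sex and mitochondrial share cannot be told apart in them. In bulk liver, fewer cells of a type and less RNA per cell cannot be told apart either. Beside the main groups of genes below, values without WT 1 and WT 2 are given. Where WT 1 or WT 2 lay at or near the LKO level, leaving them out had to widen the difference. For such genes the values without them are a description and not added support.

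The genes that fell were A1bg and 3 members of the Sult2a cluster. A1bg, a secreted plasma protein of the immunoglobulin superfamily (mm10 chromosome 15, 60896859 to 60923012, minus strand), had 24.62, 0.24 and 0.44 TPM in LKO 1 to 3. In the WT libraries it had 81.11 TPM at the lowest, 471 at the median and 853 at the highest. Even the highest LKO library, the XX library LKO 1, lay below the lowest WT library, which was WT 1. The fall was -6.61 ± 0.98 (SE) on the log2 scale (adjusted p = 0.0141).

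Sult2a1 (mm10 chromosome 7, 13796246 to 13837409, minus strand), which sulfates hydroxysteroids and bile acids, had 22.53, 0.4 and 0.67 TPM in LKO 1 to 3. The WT libraries ran from 58.02 over a median of 336 to 570.4 TPM. Its neighbour Sult2a2 (13733505 to 13779636, plus strand) had 9.7, 1.22 and 0.21 TPM against 50.08 at the lowest, 146 at the median and 364 at the highest. The next neighbour, Sult2a5 (13623967 to 13670807, plus strand), had 4.5, 0.34 and 0.05 TPM against 6.16, 25.77 and 35.68 TPM. In all 3 genes LKO 1 was the highest LKO library, and in each it stayed below every WT library. The falls were -6.05 ± 0.93 for Sult2a1 (adjusted p = 0.0141), -5.50 ± 0.80 for Sult2a2 (adjusted p = 0.0141) and -3.37 ± 0.59 for Sult2a5 (adjusted p = 0.0322). Sult2a3, of the same cluster, had 0.35 TPM in LKO 1, was listed at 0 in LKO 2 and 3, and had 1.74 TPM at the lowest, 9.72 at the median and 73.85 at the highest in WT. Sult2a3 passed the filter through WT alone, and it did not pass the test (-3.42 ± 0.85, adjusted p = 0.189). The longest annotated transcripts of Sult2a1, Sult2a2, Sult2a3 and Sult2a5 share exact runs of 60 to 216 bases pairwise, so reads can be split between them and the level of a single member is uncertain. A1bg, Sult2a1 and Sult2a2 each kept an adjusted p under 0.05 in 22 of 31 alternatives and Sult2a5 in 13, with a negative difference in all of them. With a term for XX or XY the differences were -4.70 for A1bg, -3.67 for Sult2a1 and -3.78 for Sult2a2 and did not pass (adjusted p = 0.165), nor did they without LKO 2 or without LKO 3, the XY libraries (adjusted p = 0.143 to 0.21).

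**Figure D2:**
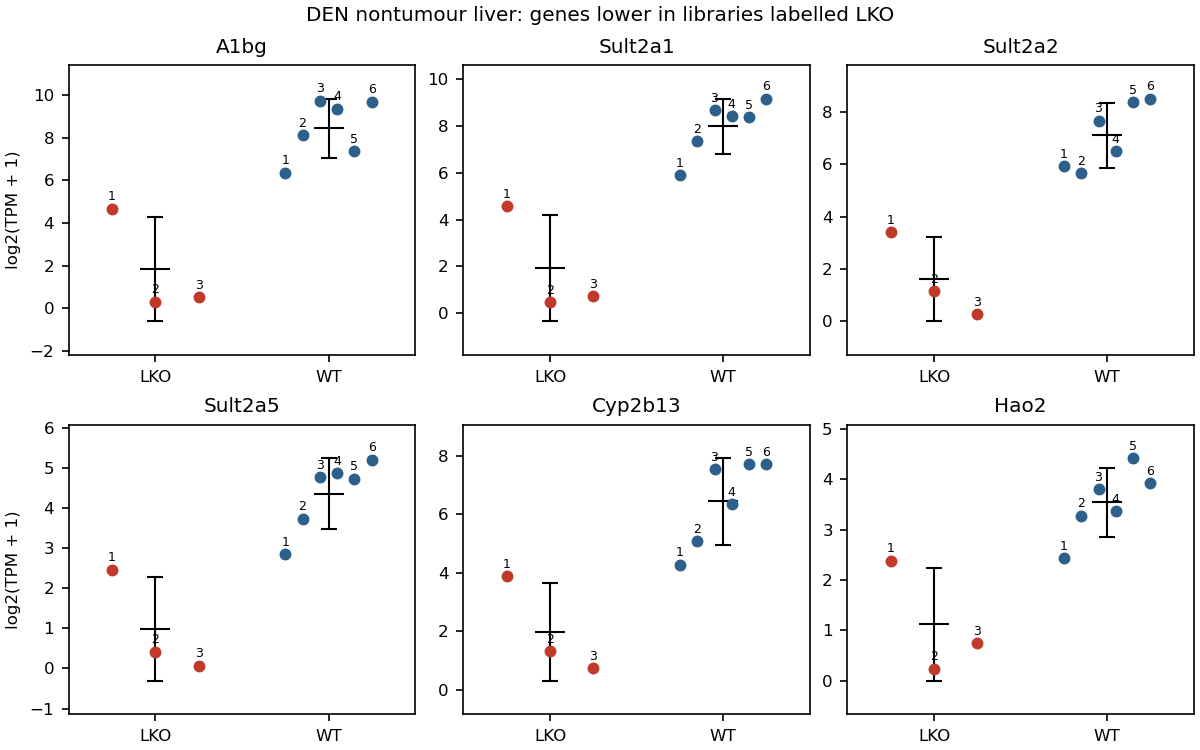
Levels of A1bg, Sult2a1, Sult2a2, Sult2a5, Cyp2b13 and Hao2 as log2(TPM + 1), 1 point per library with its number, LKO in red and WT in blue; bars are the mean and SD of each group. In each gene the XX library LKO 1 is the highest of the LKO libraries and lies below the lowest WT library.

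Because these genes were lower together, their promoters are shown where a start site was found. None was found for Sult2a1 and Sult2a2, and Sult2a3 of the same cluster, which did not pass, is shown beside Sult2a5. RefSeq (GRCm38.p6) gives start sites for Sult2a5, Sult2a3 and A1bg, and the 250 bases before each are printed 5′ to 3′ on the gene's strand. They are chr7:13623717-13623966 (plus strand) for Sult2a5, chr7:14123049-14123298 (minus strand) for Sult2a3 and chr15:60921271-60921520 (minus strand) for A1bg. Capitals mark matches, on either strand, to GTTAAT and ATT with any 1 base between (a site type bound by the hepatocyte factor HNF1), TTCNNNGAA (the STAT5 type), AGGTCA repeated after any 1 base (the type bound by PPARa with its partner RXR) or TATAAA. No match overlapped another.
Sult2a5: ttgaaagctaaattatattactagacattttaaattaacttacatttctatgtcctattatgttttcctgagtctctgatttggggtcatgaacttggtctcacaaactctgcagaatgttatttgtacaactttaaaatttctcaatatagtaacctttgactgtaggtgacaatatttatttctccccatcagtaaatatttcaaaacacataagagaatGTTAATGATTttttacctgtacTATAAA
Sult2a3: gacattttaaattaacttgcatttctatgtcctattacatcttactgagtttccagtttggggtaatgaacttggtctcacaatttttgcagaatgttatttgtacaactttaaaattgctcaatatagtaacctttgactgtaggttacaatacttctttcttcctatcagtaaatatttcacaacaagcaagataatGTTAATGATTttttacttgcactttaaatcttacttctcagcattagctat
A1bg: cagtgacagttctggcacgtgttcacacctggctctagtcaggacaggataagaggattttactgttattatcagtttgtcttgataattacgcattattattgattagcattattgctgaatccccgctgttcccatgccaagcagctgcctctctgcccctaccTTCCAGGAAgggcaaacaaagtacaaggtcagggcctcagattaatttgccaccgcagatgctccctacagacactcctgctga
Both Sult2a windows hold the letters GTTAATGATT, ending 19 bases before the start in Sult2a5 and 42 before it in Sult2a3, a motif found in 0.399% of 32841 windows of 300 bases (250 before and 50 after a start). The complete windows of these Sult2a genes were 75.9% identical when aligned. The printed bases of Sult2a5 also end in TATAAA, directly before the start, a motif found in 13.6% of windows. The A1bg window holds TTCCAGGAA, of the STAT5 type, which 8.30% of windows hold. The printed A1bg bases lie inside the gene span given above, so the RefSeq start differs from the end of that span. The PPARa type was in 0.0396% of windows and in no window of the 8 genes with one among 12 lower genes (the 4 that fell and the 8 next by p without overlap). These matches describe the sequence and are not evidence of binding.

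Genes higher in female than in male mouse liver were lower in the LKO libraries more often than genes in general. Of 35 tested members of a female-biased list, 33 had a negative difference and the median was -2.24, against -0.24 over all genes. At an unadjusted p under 0.05, 23 were lower (7.18% of all genes) and 0 higher, and 10 lay below every WT library (1.84% of all genes). A1bg, Sult2a1, Sult2a2 and Sult2a5 were the members that passed over all genes. When WT 1 and WT 2 were left out, 19 members passed, all lower (8.07% of all genes), with a median of -2.76. The XX library LKO 1 lay below all WT libraries for 14 of the 35 members, beside 26.2% of all genes. With XX libraries only, which leaves LKO 1 as the lone LKO library and assumes that it varies like the other groups, the median was -1.19 and 7 members were lower at an unadjusted p under 0.05 (2.19% of all genes). The part of sex in these differences cannot be told apart from that of genotype for LKO 2 and LKO 3.

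Several members did not pass although all LKO libraries lay below all WT libraries. Cyp2b13, a cytochrome P450 that is far higher in female liver, had 13.76, 1.48 and 0.67 TPM in LKO 1 to 3, and 18.4 TPM at the lowest, 132 at the median and 209 at the highest in WT. LKO 1 again was the highest LKO library, and the labels did not overlap (-4.46 ± 0.84, adjusted p = 0.0711, and -5.35 without WT 1 and WT 2, adjusted p = 0.00477). Hao2, a peroxisomal hydroxy acid oxidase, had 4.22, 0.18 and 0.67 TPM against a WT range of 4.42 to 20.43 TPM with a median of 11.12. Its highest LKO and lowest WT library were nearly equal (-2.42 ± 0.49, adjusted p = 0.0885). Beyond the list, Eci3, a peroxisomal enoyl-CoA isomerase, had 4.03, 0.07 and 0.42 TPM against 4.3 to 14.21 TPM (-2.25 ± 0.45, adjusted p = 0.0854). Rab30, a GTPase of the Golgi, had 2.67, 1.29 and 1.29 TPM against 3.58 to 18.93 TPM, and Mmd2 had 0.94, 0.24 and 0.36 TPM against 2.03 to 9.95 TPM. Mmd2 is one of the 542 genes that passed the filter through WT alone and had to differ. Neither Eci3 nor Rab30 overlapped, and in each LKO 1 was the highest LKO library.

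The Cyp3a genes, enzymes of steroid and drug oxidation, split by XX and XY within the LKO label. Cyp3a41a had 820 TPM in LKO 1, inside the WT range of 259 to 2023 TPM, and 1.58 and 2.93 TPM in LKO 2 and LKO 3. Cyp3a44 had 14.29, 0.14 and 0.12 TPM against a WT range of 10.49 to 169 TPM. In both genes the XX library LKO 1 overlapped WT and the XY libraries did not. Of 8 tested Cyp3a members, all had a negative difference (median -2.74), 4 were lower at an unadjusted p under 0.05 (7.18% of all genes), and 5 passed as lower without WT 1 and WT 2 (8.07% of all genes). With XX libraries only, the difference for Cyp3a41a was -0.05. Reads shared between these near-identical genes make the level of a single one uncertain.

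Several male-biased genes were high in LKO 2 and less so in LKO 3, although both were XY. Mup20, a major urinary protein that signals between males, had 10382 TPM in LKO 2, 420.5 TPM in LKO 3 and 72.84 TPM in LKO 1, against 10.8 to 295 TPM in WT. Cyp4a12a, a fatty acid hydroxylase of male liver, had 69.17 TPM in LKO 2, 2.21 TPM in LKO 3 and 2.0 TPM in LKO 1, against 0.2 to 1.75 TPM in WT. Cyp2d9 had 69.47, 409 and 127 TPM in LKO 1 to 3 against 10.37 to 45.78 TPM in WT. For Cyp4a12a and Cyp2d9 even the XX library LKO 1 lay above all WT libraries, and LKO 2 stood apart in all 3 genes. Mup and Cyp2d genes have close paralogs, so these levels are uncertain. Of 23 tested male-biased genes, 5 were higher at an unadjusted p under 0.05 (6.45% of all genes), 3 lay above all WT libraries (2.25% of all genes), and the median was 0.37. None passed over all genes in limma, with all libraries or without WT 1 and WT 2, where the median was -0.29.

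Targets of PPARa were lower across the list, although none passed over all genes. Of 37 tested targets, 36 had a negative difference and the median was -1.41. At an unadjusted p under 0.05, 23 were lower and 0 higher (7.18% and 6.45% of all genes), and 11 lay below every WT library (1.84% of all genes). Without WT 1 and WT 2, 22 passed, all lower (8.07% of all genes), and the median was -2.0 against -0.49 over all genes. Leaving out the members that are also female-biased gave 34 genes, 21 lower at an unadjusted p under 0.05 (7.18% of all genes) and a median of -1.37. Adjusted for the mitochondrial share, the median was -0.60 beside 0.22 over all genes, and 5 were lower at an unadjusted p under 0.05 (1.08% of all genes).

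Cyp4a14, which hydroxylates fatty acids at their far end, had 10.94, 3.01 and 3.06 TPM in LKO 1 to 3 and 27.36 TPM at the lowest, 171 at the median and 364 at the highest in WT. The labels did not overlap and LKO 1 was again the highest LKO library (-4.56 ± 0.95, adjusted p = 0.101, and -5.30 without WT 1 and WT 2, adjusted p = 0.0126). Acot3, a peroxisomal acyl-CoA thioesterase, had 6.92, 0.92 and 2.55 TPM against 13.43, 61.86 and 94.4 TPM (-3.54 ± 0.78, adjusted p = 0.125). Its neighbours Acot1 and Acot4, thioesterases of the cytosol and of peroxisomes, also lay below all WT libraries, at 1.56 to 5.51 TPM and 2.45 to 3.83 TPM. The 3 genes are close in sequence and reads may be shared.

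Acaa1b, the thiolase that ends a round of peroxisomal oxidation, was at like levels in the XX and XY LKO libraries. It had 90.99, 124 and 71.15 TPM in LKO 1 to 3 against 200.3 TPM at the lowest, 670.3 at the median and 855 at the highest in WT. All 3 lay below WT (-2.52 ± 0.68, adjusted p = 0.219, and -3.0 without WT 1 and WT 2, adjusted p = 0.0259). Eci2, an enoyl-CoA isomerase, had 40.03, 31.31 and 20.93 TPM against a WT range of 50.02 to 272 TPM, with no overlap. Ehhadh, the bifunctional peroxisomal enzyme, had 10.51, 6.11 and 7.17 TPM against a WT range of 9.43 to 113 TPM. Its lowest WT library was WT 1, which overlapped LKO 1.

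**Figure D3:**
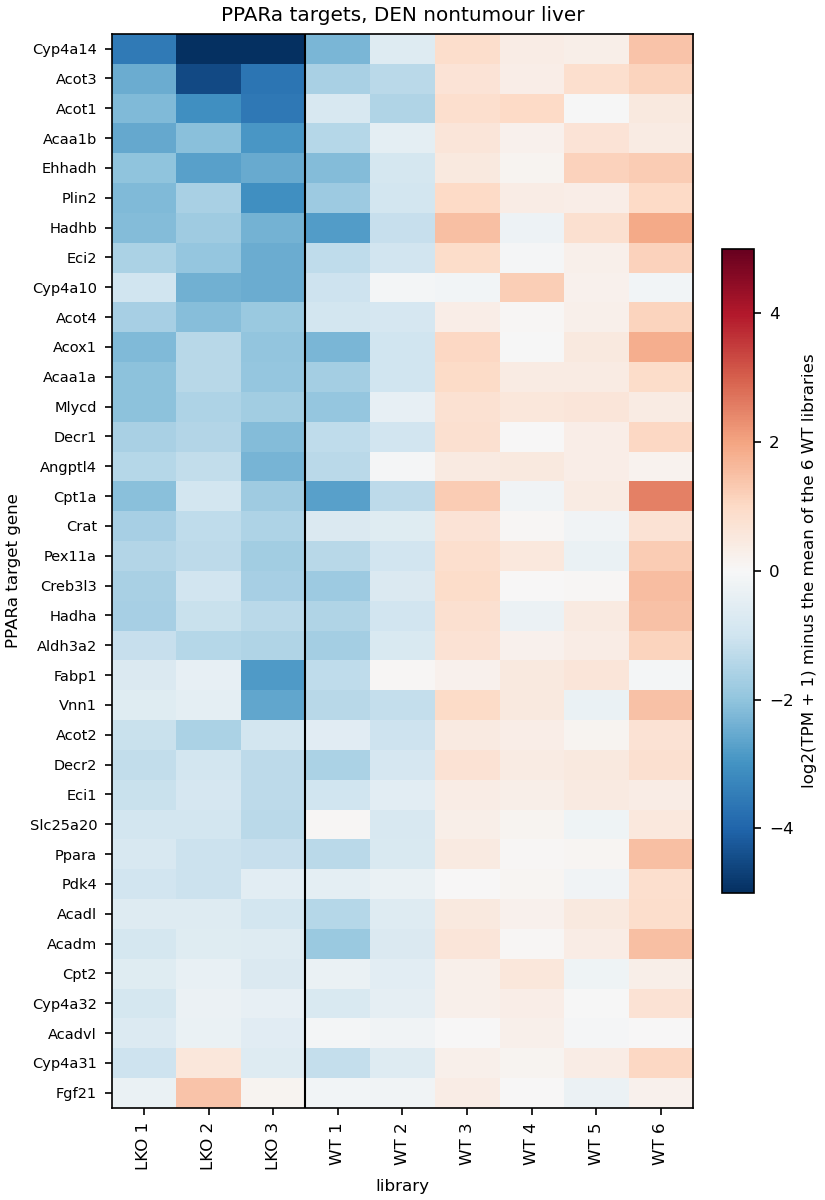
Difference of log2(TPM + 1) from the mean of the 6 WT libraries for 36 of the 37 tested PPARa targets (rows) in the 3 LKO and 6 WT libraries (columns); blue is lower, red is higher, and the colour scale ends at -5 and 5, which Cyp4a14 passes in LKO 2 and LKO 3. The 3 LKO columns are mostly blue, and so is the column of WT 1, with 2.36 TPM of Ftcd and a mitochondrial share of 38.82%. Over all 37 tested targets the mean of log2(TPM + 1) was 4.12 to 4.58 in LKO and 4.6 in WT 1. It was 5.2 in WT 2, with 2.5 TPM of Ftcd, and 6.18 to 6.86 in WT 3 to WT 6.

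Genes of the lipid droplet gave a mixed picture. G0s2, an inhibitor of the triglyceride lipase ATGL, had 26.78, 25.9 and 26.48 TPM in LKO 1 to 3 and 38.91 TPM at the lowest, 269 at the median and 448 at the highest in WT. The 3 LKO libraries were nearly equal and lay below all WT libraries (-2.77 ± 0.71, adjusted p = 0.189, and -3.62 without WT 1 and WT 2, adjusted p = 0.00759). Plin2, which coats lipid droplets, had 34.34, 51.82 and 18.45 TPM against 44.93, 206 and 325 TPM, with LKO 2 inside the WT range. Lpl, a lipase that hepatocytes of adult liver make little of, had 4.9, 23.22 and 20.58 TPM against 2.0 to 5.51 TPM, with the XY libraries above all others. Of 18 tested genes of PPARg and the lipid droplet, 3 were lower and 1 higher at an unadjusted p under 0.05 (7.18% and 6.45% of all genes), and the median was -0.54. Pparg itself had 2.39 to 4.54 TPM in LKO and 2.99 to 8.21 TPM in WT. Among 25 genes of cholesterol synthesis and uptake, 0 had an unadjusted p under 0.05 in limma and 2 passed as lower without WT 1 and WT 2, a share near the background (8.07% of all genes). Of 19 genes of fatty acid synthesis, 3 were lower and 1 higher at that p (7.18% and 6.45% of all genes). The higher one was Elovl6, which lengthens saturated fatty acids, at 30.61, 40.47 and 122 TPM against 8.39 to 37.77 TPM.

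Genes of the hepatocytes around the central vein mostly lay lower in LKO, with WT 1 at the LKO level for Cyp2e1. Of 26 tested pericentral genes, 22 had a negative difference (8031 of 12461 over all genes) and the median was -1.12. At an unadjusted p under 0.05, 9 were lower (7.18% of all genes), and 1 lay below every WT library (1.84% of all genes). With those 2 libraries left out, 10 passed, all lower (8.07% of all genes). Cyp2e1, the enzyme that activates DEN, had 489, 382 and 583 TPM in LKO 1 to 3. In WT it had 427 TPM in WT 1, 1432 TPM in WT 2 and 5446 to 7472 TPM in WT 3 to WT 6. WT 1 thus lay within the LKO range and WT 2 between (-2.72 ± 1.07, adjusted p = 0.335, and -3.73 without both, adjusted p = 0.0334). Glul, glutamine synthetase of the innermost pericentral cells, had 156, 105 and 85.93 TPM against 114 to 639 TPM. Its difference of -1.46 ± 0.84 did not pass (adjusted p = 0.406).

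Of 22 tested periportal genes, 21 had a negative difference, 4 were lower and 1 higher at an unadjusted p under 0.05 (7.18% and 6.45% of all genes), and the median was -0.78. All 14 tested genes of the urea cycle and ammonia handling had a negative difference, 4 at an unadjusted p under 0.05 (7.18% of all genes). Ass1, argininosuccinate synthase, had 398, 402 and 625 TPM in LKO 1 to 3, 355 TPM in WT 1 and 1744 to 2946 TPM in WT 2 to WT 6. Here only WT 1 overlapped the LKO libraries (-1.84 ± 0.61, adjusted p = 0.320, and -2.38 without WT 1 and WT 2, adjusted p = 0.0217). The periportal gene with the opposite sign was Cdh1, E-cadherin, at 9.6, 68.05 and 30.02 TPM against 1.06 to 8.67 TPM. All LKO libraries lay above WT (2.67 ± 0.79, adjusted p = 0.274).

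Histidine breakdown is the pathway that ends in Ftcd. Hal, which removes ammonia from histidine, had 54.73, 70.9 and 54.95 TPM in LKO 1 to 3 against 57.32 TPM in WT 1 and up to 187 TPM in WT 4. The next enzyme, Uroc1, had 28.15, 65.82 and 47.46 TPM against 29.05 TPM in WT 1 and up to 185 TPM in WT 6. Amdhd1, which makes the formiminoglutamate that Ftcd consumes, had 31.84, 41.8 and 24.74 TPM against 32.48 TPM in WT 1 and 67.32 to 94.9 TPM in the other WT libraries. In all 3 genes WT 1 lay at the LKO level and WT 2 to WT 6 lay above every LKO library. None passed: the differences were -1.04 for Hal (adjusted p = 0.364), -1.20 for Uroc1 (adjusted p = 0.373) and -1.09 for Amdhd1 (adjusted p = 0.359). Of 7 tested genes of the list, Ftcd included, 7 had a negative difference and 3, again with Ftcd, were lower at an unadjusted p under 0.05 (7.18% of all genes). The median of -1.04 was -0.13 with the mitochondrial share as a covariate.

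Of 29 tested folate and one-carbon enzymes, 24 had a negative difference (8031 of 12461 over all genes) and the median was -0.73. At an unadjusted p under 0.05, 7 were lower and 2 higher (7.18% and 6.45% of all genes). Without WT 1 and WT 2, 8 passed, all lower (8.07% of all genes). Aldh1l1, which oxidises formyl tetrahydrofolate, had 47.92, 69.75 and 149 TPM in LKO 1 to 3 against 83.3 to 626 TPM in WT. Shmt1, which moves a carbon from serine to folate, had 15.6, 15.08 and 23.5 TPM against 15.64 TPM in WT 1, 33.22 TPM in WT 2 and 88.8 to 118 TPM in the others. Only WT 1 lay within the LKO range of Shmt1. Gnmt, which consumes S-adenosylmethionine, had 72.34, 54.85 and 245 TPM against 165 to 2195 TPM (-2.76 ± 0.86, adjusted p = 0.282, and -3.74 without WT 1 and WT 2, adjusted p = 0.0194). Cbs, which draws homocysteine out of the methyl cycle, had 41.47, 64.31 and 63.52 TPM against 73.67 to 226 TPM, with no overlap (-1.49 ± 0.46, adjusted p = 0.282). Of 23 tested genes of methionine and the methyl cycle, 2 were lower at an unadjusted p under 0.05, a share near the background (7.18% of all genes), and 5 passed as lower without WT 1 and WT 2 (8.07% of all genes). In tryptophan breakdown, Afmid, a formamidase that releases formate, had 5.27, 7.59 and 8.69 TPM against 11.86 to 101 TPM, with no overlap.

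Among enzymes of drug metabolism, many sulfotransferases lay lower. Of 17 tested, 10 were lower at an unadjusted p under 0.05 (7.18% of all genes), 6 lay below all WT libraries (1.84% of all genes) and the median was -1.45. The 3 that passed were the Sult2a genes above, and in the 11 sulfotransferases not on the female-biased list the median was -1.19 with 5 lower at that p (7.18% of all genes). Of 22 glutathione transferases, 7 were lower and 3 higher at that p (7.18% and 6.45% of all genes). Gstt3 had 10.73, 7.84 and 7.31 TPM in LKO 1 to 3 against 15.51 to 81.31 TPM in WT, with no overlap (-2.32 ± 0.58, adjusted p = 0.189). Gstp2, of a class that is higher in male liver, had 110.3, 555 and 615.5 TPM against 24.88 to 170 TPM, with LKO 1 inside the WT range. Of 18 UDP-glucuronosyltransferases 5 were lower at that p (7.18% of all genes), and Ugt1a1, which conjugates bilirubin, had 28.85, 14.09 and 12.61 TPM against 10.47 TPM in WT 1 and 67.06 to 490.4 TPM in the others. Cyp2b10, a marker of the receptor CAR, had 1.35, 0.24 and 0.07 TPM against 1.72 to 16.22 TPM, with no overlap (-2.24 ± 0.53, adjusted p = 0.155).

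Secreted products of hepatocytes mostly had negative differences that did not pass. Of 24 tested acute phase genes, 23 had a negative difference, 2 were lower at an unadjusted p under 0.05, a share near the background (7.18% of all genes), and the median was -0.92. Leaving out WT 1 and WT 2 let 8 pass, all lower (8.07% of all genes). Fga, a fibrinogen chain, had 224, 144 and 98.28 TPM in LKO 1 to 3 against 65.85 TPM in WT 1, 362 TPM in WT 2 and 660 to 4219 TPM in the others. Mbl2, a lectin of complement, had 131, 88.34 and 89.73 TPM against 53.03 TPM in WT 1 and 352 to 676 TPM in the others. The coagulation factor F7 had 10.16, 6.76 and 6.71 TPM against 5.71 TPM in WT 1 and 16.25 to 98.23 TPM in the others. In all 3 genes WT 1 was lower than every LKO library. Adjusted for the mitochondrial share, the median of the acute phase list was 0.31, beside 0.22 over all genes. Of 30 tested complement and coagulation factors, 2 were lower and 1 higher at an unadjusted p under 0.05, no more than the background (7.18% and 6.45% of all genes).

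The genes that rose were at or near 0 in most WT libraries. Grm8, a glutamate receptor known from neurons (mm10 chromosome 6, 27275119 to 28135178, minus strand), had 1.67, 3.32 and 3.31 TPM in LKO 1 to 3 and at most 0.11 TPM in WT. It is one of the 34 genes that passed the filter through the LKO libraries alone and so had to differ, so its difference (1.82 ± 0.30, adjusted p = 0.0185) is given as a description. In untreated liver the difference was 1.68 (adjusted p = 0.035). The call for Grm8 held in 20 of 30 alternatives and was lost without LKO 2 (adjusted p = 0.247), without LKO 3 (adjusted p = 0.189) and with a term for XX or XY (adjusted p = 0.165). Gm3788, a processed pseudogene named here after its values were seen, had 36.44, 13.44 and 43.99 TPM in LKO, 16.2 TPM in WT 2 and was listed at 0 in the other WT libraries. LKO 2 and WT 2 overlapped (4.17 ± 0.71, adjusted p = 0.0257), and in untreated liver the difference was -0.39 (adjusted p = 0.853). Its call held in 14 of 31 alternatives and was lost when any 1 of the LKO libraries was left out. The assembled loci MSTRG.1385 (1.39 ± 0.21, adjusted p = 0.0141) and MSTRG.18284 (1.86 ± 0.30, adjusted p = 0.0185), also named after their values were seen, were listed at 0 in all WT libraries and also passed the filter through LKO alone, so the same holds for them.

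Other genes without overlap did not pass. Anks1b, a synaptic scaffold protein, had 48.62, 41.36 and 47.82 TPM in LKO 1 to 3, 11.57 TPM in WT 1 and at most 0.01 TPM in the other WT libraries. WT 1, low in Ftcd and rich in mitochondrial transcripts, thus was the one WT library with the transcript. The difference was 4.94 ± 1.06 (adjusted p = 0.112), and 5.55 without WT 1 and WT 2 (adjusted p = 0.0146). Leaving out the one WT library with the transcript had to raise it. Ncam2, a cell adhesion molecule of the immunoglobulin family, had 3.84, 6.99 and 9.66 TPM against 3.67 TPM in WT 1 and at most 0.47 TPM in the others (2.20 ± 0.43, adjusted p = 0.0854). Chrm3, a muscarinic acetylcholine receptor, had 2.99, 14.05 and 12.85 TPM against 2.86 TPM in WT 1 and at most 0.55 TPM in the others (2.63 ± 0.60, adjusted p = 0.145). In each of these 3 genes WT 1 was the WT library nearest to LKO. They span 426132 to 1099792 bases. Of annotated genes higher at an unadjusted p under 0.05 in limma, 27.9% span 100000 bases or more, against 12.1% of all annotated genes tested. Among annotated higher genes without overlap it was 17.0%. An annotation was found for 79.7% of the higher genes at that p, against 94.5% of all genes tested. The cause was not tested.

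S1pr3, a receptor for sphingosine 1-phosphate, had 4.33, 13.93 and 9.55 TPM against 0.13 to 2.73 TPM, and neither WT 1 nor WT 2 was its highest WT library (2.02 ± 0.40, adjusted p = 0.0854). Gnl2, a GTPase of ribosome assembly, had 33.75, 40.41 and 33.32 TPM against 21.46 TPM in WT 1 and 7.84 to 13.18 TPM in the others. Grb14, an adaptor that dampens insulin receptor signalling, had 43.6, 45.69 and 57.86 TPM against 17.12 to 25.54 TPM. The nuclear RNA Neat1 had 14.76, 15.88 and 35.74 TPM against 3.29 to 6.19 TPM. For Grb14 and Neat1 all WT libraries, WT 1 and WT 2 included, lay together below the LKO libraries (1.16 ± 0.28, adjusted p = 0.164, and 1.85 ± 0.45, adjusted p = 0.180). Net1, an exchange factor for the GTPase RhoA, had 21.68, 64.01 and 36.31 TPM against 9.08 to 17.24 TPM. Gngt2, a G protein subunit, had 47.85, 86.33 and 116.5 TPM against 16.17 to 41.86 TPM, and Spa17 had 6.69, 7.87 and 12.45 TPM against 0.47 to 5.26 TPM. The pseudogene Rpl17-ps3 had 80.02, 229 and 225 TPM against 1.51 to 33.6 TPM, a level that reads from Rpl17 copies can share. From the lists, the lactate transporter Slc16a1 had 34.49, 67.42 and 42.5 TPM against 5.41 to 26.58 TPM, and the chaperone Hsp90aa1 had 56.48, 96.04 and 80.01 TPM against 17.16 to 47.81 TPM.

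**Figure D4:**
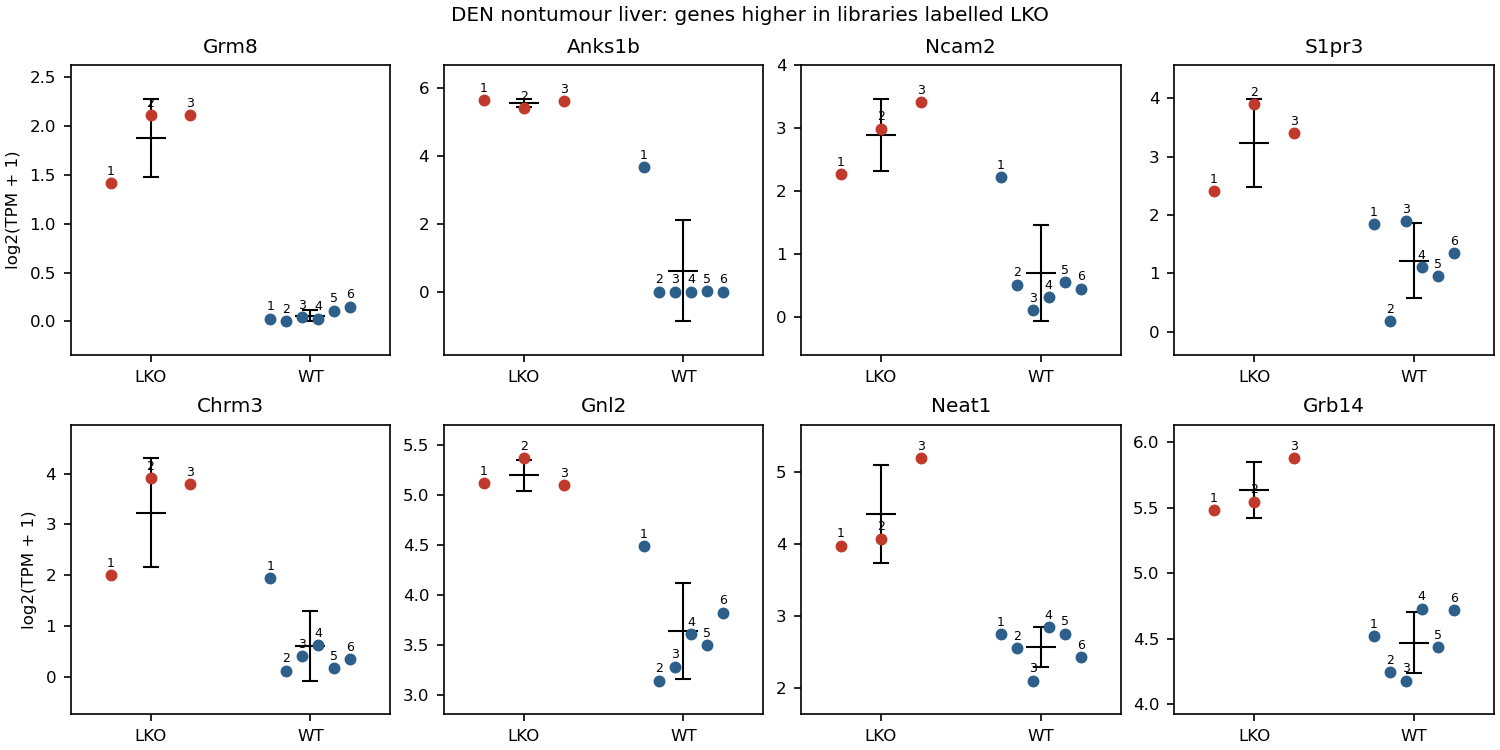
Levels of Grm8, Anks1b, Ncam2, S1pr3, Chrm3, Gnl2, Neat1 and Grb14 as log2(TPM + 1), 1 point per library with its number, LKO in red and WT in blue; bars are the mean and SD of each group. WT 1 lies between the labels for Anks1b, Ncam2, Chrm3 and Gnl2, and with the other WT libraries for Grm8, Neat1 and Grb14.

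Mitochondrially encoded genes had the opposite sign to most lists. Of 14 tested, 0 had a negative difference, 6 were higher at an unadjusted p under 0.05 (6.45% of all genes) and the median was 1.61. None passed over all genes, and 6 passed without WT 1 and WT 2 (3.69% of all genes). The nuclear-encoded genes of the respiratory chain had a median of -0.83, and 8 of 35 were lower and 1 higher at an unadjusted p under 0.05 (7.18% and 6.45% of all genes). Since TPM sum to a fixed total, a larger mitochondrial share lowers all other values. Recomputing TPM without these genes called 9 genes.

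The summed markers of most other cell types overlapped between the labels. Summed over 23 Kupffer cell and macrophage markers, the LKO libraries had 238 to 806 TPM and the WT libraries 226 to 905 TPM. Of the 20 tested, 0 had an unadjusted p under 0.05 in limma. The 22 T and NK cell markers summed to 22.3 to 79.95 TPM in LKO and 30.59 to 147 TPM in WT, with 0 of 13 tested at that p. Of 13 tested B and plasma cell markers, 3 were lower and 1 higher (7.18% and 6.45% of all genes). All 15 listed summed to 142 to 745 TPM in LKO and 94.52 to 2428 TPM in WT. The 28 stellate cell and matrix genes summed to 226 to 455 TPM in LKO and 222 to 1078 TPM in WT, with 0 of 20 tested at that p. The 21 cholangiocyte markers summed to 26.73, 159 and 214 TPM in LKO 1 to 3 and 17.46 to 132 TPM in WT, so LKO 2 and LKO 3 lay above WT. Their part in the results above was not tested. The 16 hepatocyte identity genes summed to 39344 to 94082 TPM in LKO and 33100 to 131037 TPM in WT.

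Genes of cell division and of liver cancer gave few differences in this nontumour tissue. Of 15 tested cell division genes, 1 was lower and 0 higher at an unadjusted p under 0.05, no more than the background (7.18% and 6.45% of all genes), and Top2a had 0.32, 2.88 and 2.05 TPM in LKO 1 to 3 against 0.26 to 1.56 TPM in WT. Of 14 oncofetal markers, 0 had an unadjusted p under 0.05 in limma, and the median was 0.58. Afp, alpha-fetoprotein, had 1.19, 12.61 and 5.65 TPM against 0.16 to 2.33 TPM in 5 WT libraries and 30.43 TPM in WT 4. Igf2, a fetal growth factor, had 76.36, 4.22 and 3.82 TPM against 46.85 TPM in WT 4, 50.09 TPM in WT 6 and 0.38 to 1.4 TPM in the others. High libraries of both genes thus occurred under both labels. Of 20 p53 target genes, 0 had an unadjusted p under 0.05 in limma.

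**Figure D5:**
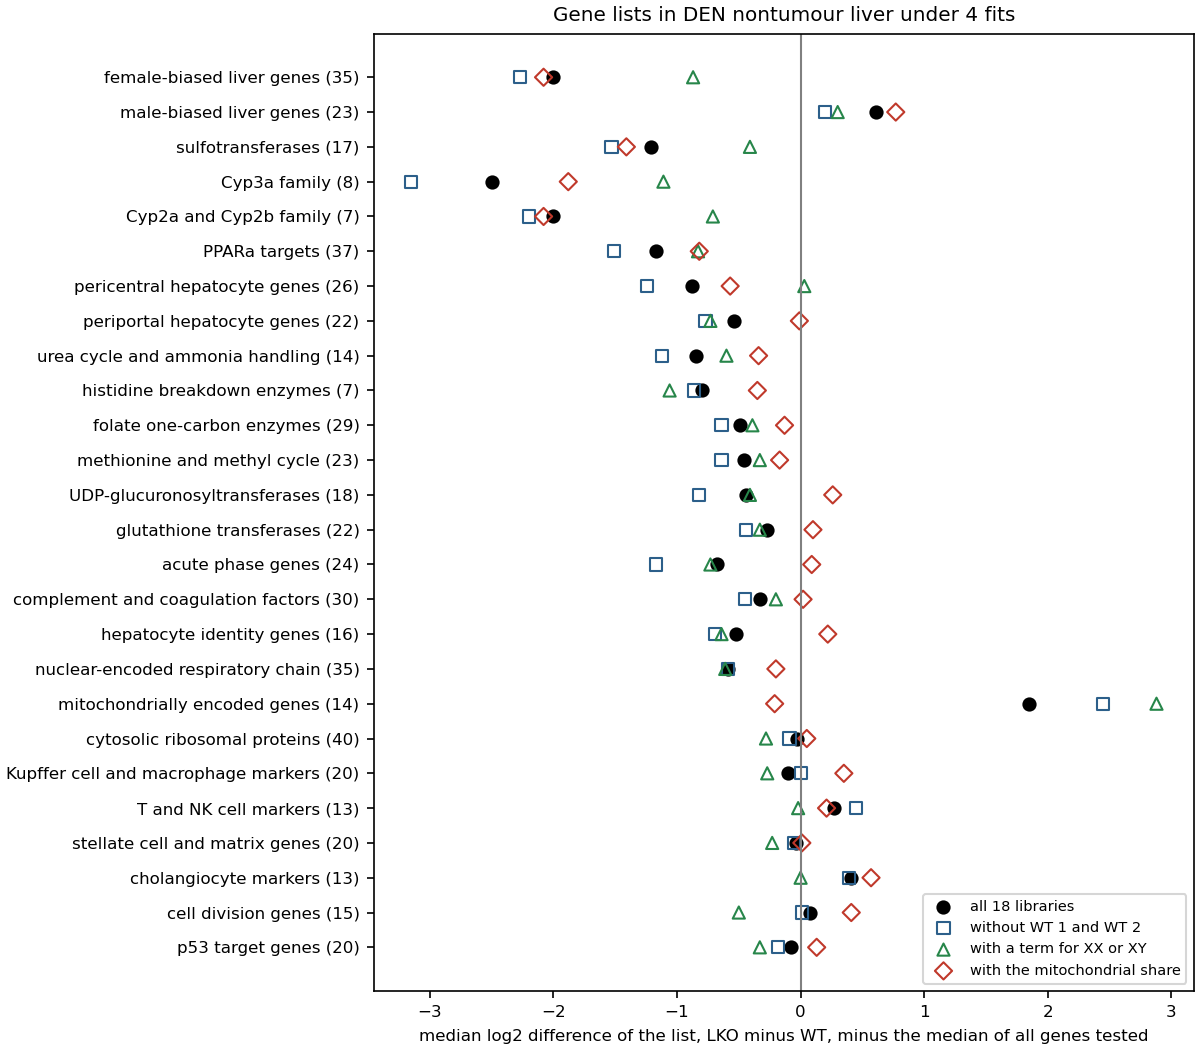
Median log2 difference (LKO minus WT) of each gene list minus the median over all genes, under 4 fits: all 18 libraries, without WT 1 and WT 2, with a term that tells XX from XY libraries, and adjusted for mitochondrial share. Female-biased genes, sulfotransferases and PPARa targets stay on the lower side in all 4 fits. So do further lists, among them the Cyp3a, urea cycle, histidine breakdown, folate and methionine lists. The mitochondrially encoded genes, far on the higher side in the other fits, lose that place after the adjustment for mitochondrial share. They had to, because that share is made of these same genes.

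Untreated liver asks whether the difference between the labels needs DEN. There the 3 LKO libraries were all XY and the 3 WT libraries all XX, so genotype and sex cannot be told apart. A1bg (-9.05), Sult2a1 (-8.26), Sult2a2 (-7.12) and Sult2a5 (-4.90) passed there too, each with a larger negative difference than with DEN. The LKO libraries with DEN include the XX library LKO 1, so the part of DEN in this gap cannot be told apart from that of sex. A1bg had 0.04, 0.44 and 0.19 TPM in untreated LKO, against 24.62, 0.24 and 0.44 TPM with DEN. Untreated WT 3 had 1.77 TPM of Ftcd and a mitochondrial share of 23.16%. The same limits hold for the difference of the effects. No gene had a difference of the effects that passed over all genes in limma (0 of 12461, 0.0%), and 278 genes (2.23%) had one at an unadjusted p under 0.05. Cyp17a1, a steroid hydroxylase on the female-biased list, had 26.17, 27.78 and 18.18 TPM with DEN in LKO against 27.38 to 98.69 TPM in WT. In untreated liver it had 1.31, 1.34 and 7.63 TPM in LKO against 104.5 to 184 TPM in WT. The label difference was -1.18 with DEN and -5.27 without, and the difference of the effects was 4.09 ± 0.83 (adjusted p = 0.338). For S1pr3 the difference of the effects was 2.40 (adjusted p = 0.966).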

How the data were processed

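Per the labels' protocols, total RNA came from TRIzol extraction and a TruSeq kit was used for the libraries. The submitters' processing notes name fastp, HISAT, RSEM and mm10, with versions not given in the sources used here. The authors deposited 1 table of TPM values, transcripts per 1000000 for each gene and library, without read counts, so depth and counting precision are unknown. Values were used as deposited, as log2(TPM + 1). Genes with at least 1 TPM in at least 3 of the 9 libraries were fitted with limma 3.58.1 (R 4.3.3, intensity trend) over 18 libraries and 5 group means (13 residual degrees of freedom). The contrast was LKO minus WT in DEN nontumour liver, with Benjamini-Hochberg adjustment over 12461 genes and a threshold of 0.05. Ftcd was also tested by an exact permutation test on log2(TPM + 1). Adjusted p-values in the report are limma's. The fit was tested on simulated data, drawn as independent normal values with the spread of these libraries. Of 50 genes changed by 1 on the log2 scale 4 were called, of 50 changed by 2 it was 30, and of 50 changed by 3 it was 48. It also called 6 unchanged genes. Changes of 1 were thus mostly missed, so few calls do not mean few differences.

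Groups came from the sample titles and characteristics. XX and XY libraries were called from Xist and Y-linked genes. Coordinates are from GENCODE M21 (mm10), which held 55141 of the gene identifiers (94.9%), and promoters from RefSeq (GRCm38.p6), found for 28 of 38 named genes. No pair of the 9 libraries was identical, and their correlations were 0.705 to 0.952. Genes were named if they passed with at least 5 TPM in the higher group, then, up to 12 per direction, as the genes without overlap at that level with the smallest p. Added to these were a set of named genes of interest and, per list, up to 6 members with the smallest p and 3 with the highest level. The members, gene lists and named genes were chosen with earlier results of these data known. Alternatives changed the pseudocount, filter, scaling, variance model, covariates or libraries. The alternatives that combine leaving out WT 1 and WT 2 with a second change, and the fit of replicates 1 to 3 without the number, were chosen after seeing the data. In the main fit, tumour and untreated libraries were used only for the spread and for the comparison with untreated liver. In fits with a term for XX or XY, the LKO tumour libraries, some XX and some XY, also set the size of that term. The slope for the mitochondrial share drew on tumour and untreated libraries too. Median-ratio scaling and quantile normalization also used all 18 libraries. Results for some single genes, among them 1 PPARa target, are not reported here.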

Additional observations from a re-analysis of the deposited data

Results flagged for a closer look

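In 40 groups of WT values, 1 library stood apart from the other 5 by Dixon's criterion at 95%, on log2(TPM + 1), in 7 genes. The rate of about 1 in 20 groups by chance holds for independent normal values. These groups share the same 6 libraries, many genes were picked by p or by lack of overlap, and the assembled loci, at 0 throughout, could not be flagged. The count is therefore not compared with chance. WT 1 was the library apart in 4 of them. It was the highest for Ncam2 at 3.67 TPM (others 0.08 to 0.47), for Anks1b at 11.57 TPM (others up to 0.01) and for Chrm3 at 2.86 TPM (others 0.09 to 0.55). It was the lowest for Amdhd1 at 32.48 TPM (others 67.32 to 94.9). WT 1 had 2.36 TPM of Ftcd and a mitochondrial share of 38.82%, and the part of either in these values was not tested. Rnu5g, a small nuclear RNA of the spliceosome, was at 17.66 TPM in WT 3 and listed at 0 in the other WT libraries. Afp was at 30.43 TPM in WT 4 (others 0.16 to 2.33). Gm3788 was at 16.2 TPM in WT 2 and listed at 0 in the others.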

How the results depend on the processing

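The count of genes passing (8 in limma) was 6 in the 9 compared libraries alone, 4 of them among the 8. It was 3 with a filter at 5 TPM, 26 with no filter, 21 with quantile normalization (8 lower and 13 higher) and 11 with median-ratio scaling. It was 0 with a pseudocount of 0.1 (1696 at an unadjusted p under 0.05), a term for XX or XY (3557), the mitochondrial share as a covariate (931) and XX libraries only (400). Leaving out 1 replicate gave 0 to 376 genes: 376 without WT 1, 14 without WT 2, 22 without LKO 1, 0 without LKO 2 (1291 at an unadjusted p under 0.05) and 1 without LKO 3. Without WT 1 and WT 2 it was 1466, and 1447 when untreated WT 3 (1.77 TPM of Ftcd) was left out too, 1692 with median-ratio scaling (828 lower and 864 higher), 3884 in the 7 remaining libraries alone, 5426 with a term for XX or XY and 1 with the mitochondrial share. Replicate numbers did not pair the LKO nontumour with the WT libraries (correlations of deviations 0.12, -0.05 and -0.26). With the replicate block 0 genes passed in limma (639 at an unadjusted p under 0.05), and in the same 6 libraries without the block 0 passed (510). Pairing of LKO nontumour with LKO tumour libraries was not checked. In both groups library 1 was XX and libraries 2 and 3 were XY. The same mice may have given both, and the fit over 18 libraries takes them as independent. The difference of the effects with and without DEN gave 3 genes with median-ratio scaling and with quantile normalization, 2 with the mitochondrial share, with no filter and without WT 1 and WT 2, 1 with a term for XX or XY, and 0 to 3 when 1 replicate was left out (3 without LKO 2, 2 without WT 2). The difference for Ftcd was -5.50 without WT 1 and WT 2, where 35 splits allow no exact permutation p below 0.0571 (2-sided: 0.0571), and -4.60 to -3.60 without 1 replicate (exact permutation p 0.0357 to 0.0714). Signs turned for genes that did not pass. Xist (-1.52) was 2.34 in XX libraries only, 2.14 with a term for XX or XY and 2.56 with that term and without WT 1 and WT 2. Afp (0.90) was -0.52, -0.76 and -1.37 in the same settings. With the mitochondrial share, Pparg (-0.62) was 0.10 and, without WT 1 and WT 2, 0.35, Srebf2 (-0.62) was 0.03, and Cidec (-0.38) was 0.21 and, without WT 1 and WT 2, 0.79. Leaving out 1 replicate gave Cidec -1.24 to 0.08 (0.01 without LKO 1, 0.08 without LKO 3), and it was 0.10 with median-ratio scaling and without WT 1 and WT 2. The cause of these changes was not tested. Relative to all genes, the median of the PPARa targets was -1.51 to -0.82 and that of the female-biased genes -2.99 to -0.61 over 31 alternatives. The histidine breakdown (-1.1 to -0.35), folate (-0.72 to -0.14), methionine (-0.69 to -0.18) and periportal (-0.91 to -0.01) lists also stayed below 0. The ranges of the acute phase (-1.17 to 0.09), pericentral (-1.24 to 0.03) and hepatocyte identity genes (-0.94 to 0.22) crossed 0. TPM keep no depth, so the precision of low values is unknown.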

Other observations

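Other listed groups gave few differences beyond the shift of all genes (median -0.24). Of 25 tested hepatocyte transcription factors and nuclear receptors, 23 had a negative difference, 4 were lower at an unadjusted p under 0.05 (7.18% of all genes) and the median was -0.39. Nr0b2, the receptor SHP that represses bile acid synthesis, had 6.21, 7.81 and 4.11 TPM in LKO 1 to 3 against 8.65 to 38.3 TPM in WT, with no overlap (-1.81 ± 0.56, adjusted p = 0.282). Of 15 genes of bile acid synthesis 2 were lower at that p (7.18% of all genes), and Cyp7a1, the rate-limiting enzyme, had 6.02, 4.79 and 11.4 TPM against 1.69 to 46.1 TPM. The bile acid importer Slc10a1 had 49.28, 24.01 and 44.33 TPM against 15.17 TPM in WT 1 and 71.38 to 506 TPM in the others. Of 16 circadian clock genes, 0 had an unadjusted p under 0.05 in limma. Of 20 genes of iron handling and metallothioneins 2 were lower at that p (7.18% of all genes), and Hamp, the iron hormone hepcidin, had 8366, 3221 and 37025 TPM against 6355 to 16475 TPM. Ighg2c, an immunoglobulin heavy chain of plasma cells, had 2.4, 2.65 and 6.57 TPM against 3.25 to 146 TPM.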
